A study of Mus musculus with 8 samples.

Results

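The genes of the Hedgehog signalling pathway studied here are the 8 genes Shh, Ptch1, Hhip, Smo, Gli1, Gli2, Gli3 and Sox2, found by symbol among the 54532 genes of the deposited read-count table. They were compared between first molars of Wdr72-/- mouse pups (KO 1, 3, 4 and 5) and of wild-type pups (WT 2, 3, 4 and 5), 4 libraries each, all labelled C57BL/6 and postnatal day 12, while the dissection protocol gives day 13. The Wdr72-/- mice came from a purchased colony, and the labels name neither the deleted part of the gene nor whether the wild-type pups were littermates. The pulp was taken out and the rest of the molar was homogenised whole, so the RNA named as that of ameloblasts, the enamel-forming epithelial cells, could also hold RNA of other tissue on the molar. The labels do not say whether a library is 1 pup or a pool, so the p-values rest on the spread between libraries alone.

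Hedgehog ligands are secreted proteins that bind the receptor PTCH1. Unbound PTCH1 holds the membrane protein SMO inactive, and ligand binding frees SMO, which acts at the primary cilium on the transcription factors GLI2 and GLI3. Transcription of Gli1, Ptch1 and Hhip is induced by the active pathway in many tissues, so their RNA is widely used as a readout of it. In developing teeth Shh comes from the dental epithelium and acts on both epithelium and the mesenchyme beside it, and Sox2, a transcription factor, marks dental epithelial stem cells.

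The libraries held 17084475 to 21887462 counted reads, and 16205 genes passed the filter on low counts. Wdr72 itself was at 102, 37.8, 24.9 and 15.8 CPM (read counts scaled by library size) in KO 1, 3, 4 and 5, against 173, 245, 327 and 227 CPM in WT 2, 3, 4 and 5. Its log2 fold change, KO minus WT here and throughout, was -2.43 (SE 0.47, adjusted p = 0.080 in edgeR), and without KO 1 it was -3.21 (adjusted p = 0.012 in edgeR). KO 1 thus kept the most Wdr72 RNA, and KO 5 stood apart over all genes, with a mean correlation with the other libraries of 0.965 against 0.980 to 0.983 for the rest. Ameloblast markers were abundant as a sum in all 8 libraries. It was 59818 to 81275 CPM over 10 markers in KO and 53653 to 98065 CPM in WT. The sum includes Wdr72 and rests largely on Ambn, at a mean of 35754.5 CPM in KO and 38661.8 CPM in WT. It does not show the single markers, of which 1 was higher and 1 lower in KO at an unadjusted p of 0.05 in edgeR (8.70% and 6.98% of all genes).

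Gli1 and Hhip, which the pathway induces, were higher in every KO library than in every WT library. The receptor Ptch1, which the pathway also induces, lay at about the same level in both groups. So did the transducer Smo and the factors Gli2 and Gli3. None of the listed genes passed an adjusted p of 0.05 in edgeR. Of the 8 genes, 7 passed the low-count filter, and 0 of these 7 passed an adjusted p of 0.05, against 0.0309% of all genes tested (0.0123% higher and 0.0185% lower in KO). At an unadjusted p of 0.05, 2 of 7 were higher in KO (8.70% of all genes) and 0 were lower (6.98% of all genes). In 2 of 7 every KO library lay above every WT library, which was so for 5.50% of all genes. The log2 fold change was above 0 in 5 of 7, and in 53.1% of all genes. DESeq2 called 1 of the 7 genes (Gli1, higher; 2.86% of all genes were called, 1.83% as higher) and limma voom 2 of them (Gli1 and Hhip, both higher; 6.62% of all genes were called, 4.34% as higher).

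Per length of transcript, Smo was the most abundant of the 8 genes, at 21.3 ± 1.06 reads per kilobase scaled as CPM (RPKM) in KO and 22.1 ± 0.525 RPKM in WT (SD, n = 4 each). Gli2, Gli3 and Ptch1 followed, at 3.71 ± 0.586, 3.44 ± 0.576 and 2.77 ± 0.587 RPKM in KO, and at 3.80 ± 0.377, 3.28 ± 0.299 and 2.75 ± 0.126 RPKM in WT. In KO their mean ± SD ranges overlapped from each gene to the next, and in WT so did those of Gli2 and Gli3, while that of Ptch1 lay below Gli3. Gli1 stood below them, at 2.32 ± 0.199 RPKM in KO and 1.41 ± 0.180 RPKM in WT. The KO level of Gli1 lay within the spread of Ptch1, and its WT level did not. Hhip, Sox2 and Shh were the scarcest, at 0.429 ± 0.0352, 0.389 ± 0.201 and 0.239 ± 0.115 RPKM in KO and at 0.228 ± 0.115, 0.335 ± 0.173 and 0.119 ± 0.115 RPKM in WT. In each group, neighbours among these 3 genes had overlapping mean ± SD ranges.

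**Figure D1:**
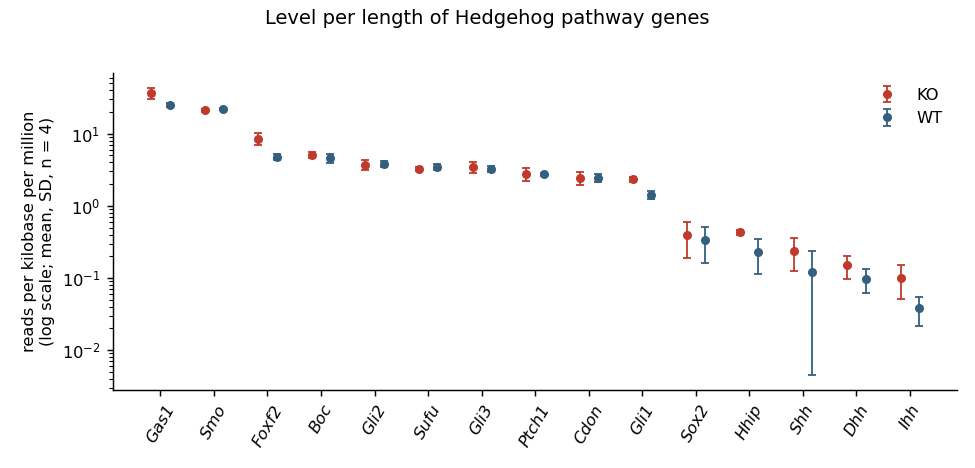
Levels per length of the 8 listed genes and of 7 further pathway genes, on a log axis in RPKM, as mean and SD over 4 KO libraries (red, left of each pair) and 4 WT libraries (blue). Gas1 and Smo lie highest, Gli1 is at 2.32 in KO against 1.41 in WT, and the ligands Shh, Dhh and Ihh lie lowest.

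The ligand Shh (ENSMUSG00000002633, chromosome 5, 28456815 to 28467256, minus strand, GRCm38 as in the table) was near the limit of detection. It had 7, 24, 10 and 15 reads in KO 1, 3, 4 and 5, against 4, 1, 17 and 5 reads in WT 2, 3, 4 and 5. That is 0.681 ± 0.329 CPM in KO and 0.340 ± 0.327 CPM in WT. WT 4 lay above KO 1, KO 4 and KO 5, so the groups overlapped. Shh did not pass the low-count filter, and an exact permutation test of its mean CPM over the 70 arrangements of the libraries, two-sided, gave p = 0.20. With no low-count filter edgeR gave a log2 fold change of 0.99 (SE 0.56, adjusted p = 0.50). A difference in Shh was thus not detected, with few reads and a wide spread between libraries of the same group.

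Ptch1, the ligand receptor that is also a target of the pathway (ENSMUSG00000021466, chromosome 13, 63508328 to 63573598, minus strand), had 42.6, 47.4, 39.5 and 27.8 CPM in KO 1, 3, 4 and 5, against 41.2, 39.6, 37.2 and 38.0 CPM in WT 2, 3, 4 and 5. KO 3 and KO 1 were the highest of the 8 libraries and KO 5 was the lowest, so the KO values lay on both sides of a narrow WT range. Ptch1 had a log2 fold change of 0.013 (SE 0.15, adjusted p = 0.97 in edgeR), with an unadjusted 95% interval of -0.31 to 0.33. Its direction did not hold, and without KO 3 it was -0.094.

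Hhip, a membrane-anchored protein that binds Hedgehog ligands and keeps them from PTCH1 (ENSMUSG00000064325, chromosome 8, 79965851 to 80058006, minus strand), had 3.45, 4.18, 3.91 and 4.06 CPM in KO 1, 3, 4 and 5, against 1.55, 0.859, 2.75 and 3.11 CPM in WT 2, 3, 4 and 5. The KO libraries were close together, and all lay above the WT libraries, which spread widely. This rests on 63 to 91 reads per library in KO and 18 to 58 in WT. Hhip had a log2 fold change of 0.92 (SE 0.33), or 1.89-fold with an unadjusted 95% interval of 1.16 to 3.09, and the adjusted p was 0.23 in edgeR. Hhip passed by limma voom, run here with a quality weight for each library, at a log2 fold change of 1.48 (adjusted p = 0.015). That is over 1.5 times the edgeR value. Without WT 3, the lowest library, edgeR gave 0.66.

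The promoters of Hhip, Ptch1 and Gli2 are shown because Hhip and Ptch1 are both targets of GLI factors and the groups were apart in Hhip but not in Ptch1, and because Gli2 was the only listed gene whose window held 7 letters of the GLI site. Each is the window from 250 bases before to 50 after a RefSeq start, read 5′ to 3′ on the gene's strand (GRCm38.p6), with each CCACCC or its reverse complement GGGTGG in capitals. The RefSeq start used for Ptch1 lies inside the gene as the table spans it.
Hhip, chr8:80057959-80058258, minus strand: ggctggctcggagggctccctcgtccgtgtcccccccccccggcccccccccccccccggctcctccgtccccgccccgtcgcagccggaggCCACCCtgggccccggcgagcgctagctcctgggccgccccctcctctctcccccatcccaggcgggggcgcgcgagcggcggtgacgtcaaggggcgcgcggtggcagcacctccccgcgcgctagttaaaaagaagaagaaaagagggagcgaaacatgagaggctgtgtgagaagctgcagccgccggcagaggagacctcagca
Ptch1, chr13:63565686-63565985, minus strand: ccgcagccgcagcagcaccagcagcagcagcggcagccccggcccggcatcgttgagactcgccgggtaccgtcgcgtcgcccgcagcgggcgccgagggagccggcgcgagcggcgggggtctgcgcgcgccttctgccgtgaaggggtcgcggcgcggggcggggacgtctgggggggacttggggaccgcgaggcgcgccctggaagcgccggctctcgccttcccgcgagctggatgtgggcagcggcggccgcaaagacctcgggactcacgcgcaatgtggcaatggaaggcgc
Gli2, chr1:119053570-119053869, minus strand: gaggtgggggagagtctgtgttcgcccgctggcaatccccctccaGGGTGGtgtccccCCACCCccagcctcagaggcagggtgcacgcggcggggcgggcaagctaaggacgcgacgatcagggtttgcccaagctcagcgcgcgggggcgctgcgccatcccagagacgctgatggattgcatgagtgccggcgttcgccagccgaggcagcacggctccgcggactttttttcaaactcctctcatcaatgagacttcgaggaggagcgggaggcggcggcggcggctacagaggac
Gli1 and Shh had no window and were not searched. The 9-letter GLI site GACCACCCA, searched on both strands, was in 0 of the 6 listed genes with a window and in 0.253% of all 32851 windows. Its inner 7 letters, ACCACCC, were in the Gli2 window and in 4.61% of all windows. The 6 letters CCACCC, which are part of both longer motifs, were in 4 of the 6 windows (Gli2, Gli3, Hhip and Smo) and in 31.5% of all windows. Over all pathway genes with a window, the listed ones included, 13 of 39 held these 6 letters. In Hhip the match began 158 bases before the start, in Gli2 the matches began 205 and 192 bases before it, and the Ptch1 window held none. A match is a description of these letters and no evidence of binding.

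Smo, the transducer that PTCH1 holds inactive (ENSMUSG00000001761, chromosome 6, 29735503 to 29761365, plus strand), had 118, 117, 128 and 115 CPM in KO 1, 3, 4 and 5, against 126, 125, 120 and 126 CPM in WT 2, 3, 4 and 5. KO 4 was the highest library and the other 3 KO libraries were below all WT libraries, so the groups overlapped. Its log2 fold change of -0.055 (SE 0.094, adjusted p = 0.80 in edgeR) had the narrowest interval of the listed genes, from -0.26 to 0.15.

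Gli1, an activator whose transcription depends on the pathway (ENSMUSG00000025407, chromosome 10, 127329882 to 127341974, minus strand), had 10.8, 12.8, 11.9 and 10.8 CPM in KO 1, 3, 4 and 5, against 6.64, 5.97, 7.64 and 7.91 CPM in WT 2, 3, 4 and 5. All KO libraries lay above all WT libraries, with a gap wider than the spread within either group, and KO 1, with the most Wdr72 RNA of the KO libraries, matched KO 5, with the least. The level was 11.6 ± 0.993 CPM in KO and 7.04 ± 0.901 CPM in WT. The log2 fold change was 0.72 (SE 0.14), or 1.65-fold with an unadjusted 95% interval of 1.33 to 2.04. Gli1 ranked 58 of 16205 genes by p, and its adjusted p of 0.080 in edgeR did not pass 0.05. Over all alternatives the log2 fold change ran from 0.65 to 0.85 and the adjusted p from 0.0013 to 0.60, and it passed with DESeq2 (adjusted p = 0.0013), limma voom (adjusted p = 0.0055), no low-count filter (adjusted p = 0.021) and without KO 5 (adjusted p = 0.047 in edgeR). Gli1 shares its last 62 bases with the convergent gene Arhgap9, which had 55.0% as many reads and 5.68 ± 0.589 CPM in KO against 4.59 ± 1.19 CPM in WT, and reads in the shared bases cannot be assigned to either gene.

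Gli2, the main activator of the pathway (ENSMUSG00000048402, chromosome 1, 118834132 to 119053619, minus strand), had 28.8, 25.7, 27.7 and 19.8 CPM in KO 1, 3, 4 and 5, against 26.1, 24.5, 24.0 and 29.7 CPM in WT 2, 3, 4 and 5. Gli3, whose cut form is the main repressor (ENSMUSG00000021318, chromosome 13, 15463235 to 15730026, plus strand), had 34.2, 36.5, 36.3 and 24.9 CPM in KO, against 31.2, 30.4, 28.9 and 35.5 CPM in WT. Both genes had their lowest value in KO 5 and overlapped between the groups. The log2 fold change was -0.033 (SE 0.14, adjusted p = 0.92 in edgeR) for Gli2, with an unadjusted 95% interval of -0.33 to 0.26. It was 0.068 (SE 0.14, adjusted p = 0.83 in edgeR) for Gli3, with an interval of -0.23 to 0.37. Without KO 5 the log2 fold change of Gli2 was 0.072, and Gli2 also changed sign with limma voom, so its direction did not hold.

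The difference in Gli1 was also set against the other factors within each library, which removes the scaling between libraries. There were 0.376, 0.499, 0.430 and 0.545 Gli1 reads per Gli2 read in KO 1, 3, 4 and 5, against 0.254, 0.244, 0.318 and 0.266 in WT 2, 3, 4 and 5. Per read of Gli3, Ptch1 and Smo the groups did not overlap either, with means of 0.357 ± 0.0526, 0.304 ± 0.0590 and 0.0970 ± 0.00880 in KO and of 0.224 ± 0.0292, 0.182 ± 0.0297 and 0.0567 ± 0.00775 in WT. For each of these 4 ratios the exact permutation test on the log2 scale, two-sided, gave p = 0.0286, the smallest that 70 arrangements can give. The adjusted p over the 7 ratios computed, which were picked after the values were seen, was 0.05 and so not below the threshold. Gli1 was already apart in CPM while the genes below it in these 4 ratios overlapped between the groups, and all 4 share Gli1. The tests therefore largely restate the difference in Gli1 and add no separate support for it. KO 5 had the highest ratios to Gli2, Gli3 and Ptch1, and these genes were at their lowest there, at 19.8, 24.9 and 27.8 CPM. Hhip reads per Gli1 read were 0.337 ± 0.0268 in KO and 0.283 ± 0.115 in WT and overlapped (exact permutation p = 0.40).

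**Figure D2:**
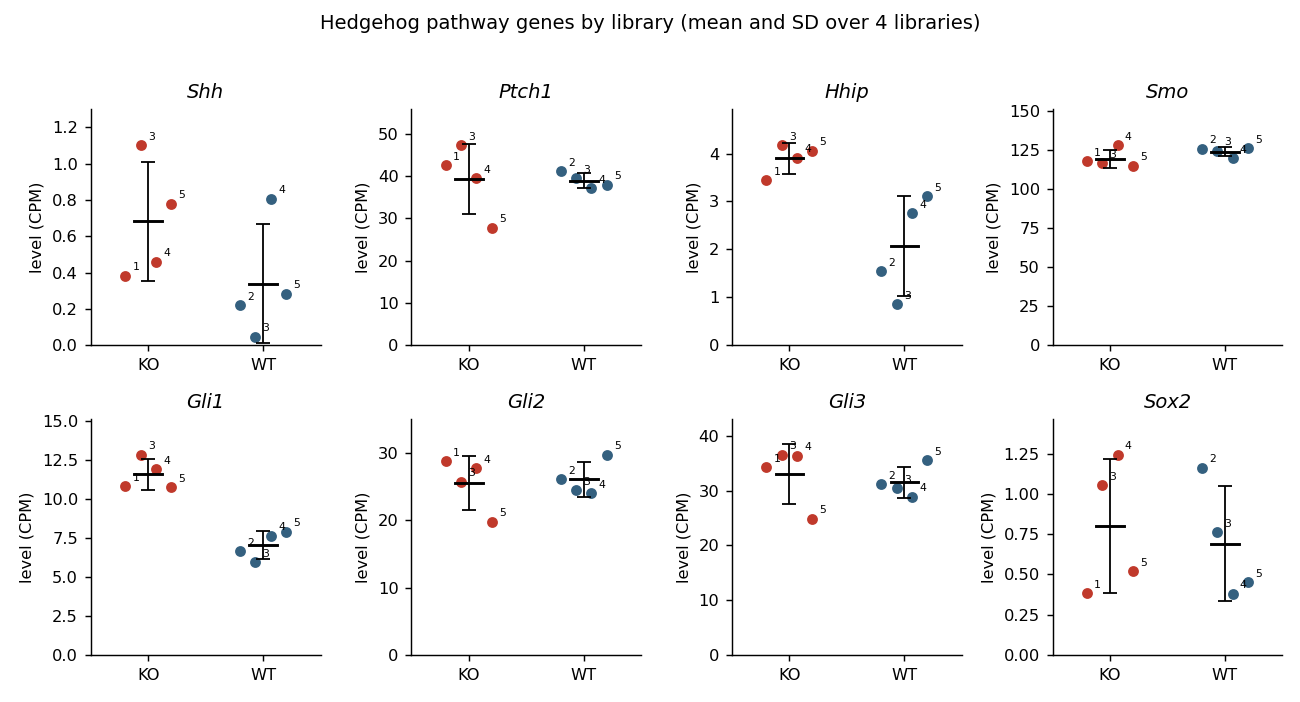
Level of each of the 8 listed genes in CPM in the 4 KO libraries (red, left) and the 4 WT libraries (blue, right), with the library number beside each point, and the mean and SD as black lines. The groups are apart in Gli1 (10.8 to 12.8 against 5.97 to 7.91 CPM) and Hhip (3.45 to 4.18 against 0.859 to 3.11 CPM) and overlap in the other 6 genes.

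Sox2, the epithelial stem cell factor (ENSMUSG00000074637, chromosome 3, 34650405 to 34652461, plus strand), had 7, 23, 27 and 10 reads in KO 1, 3, 4 and 5, against 21, 16, 8 and 8 reads in WT 2, 3, 4 and 5. High and low libraries occurred in both groups. Its level was 0.800 ± 0.414 CPM in KO and 0.690 ± 0.357 CPM in WT, with a log2 fold change of 0.24 (SE 0.47, adjusted p = 0.83 in edgeR) and an unadjusted 95% interval of -0.79 to 1.26, so that changes of about the size seen in Gli1 were not detectable for Sox2. Without KO 4 the log2 fold change was -0.052, so the direction did not hold. Sox2 lies within Sox2ot on the same strand, which had 31 reads in KO and 29 in WT, and the Sox2 count is uncertain for that reason. A further list held dental epithelial progenitor and basal epithelium genes. Of these, Krt14, a basal keratin, was at a mean of 8335 CPM in KO and 8213 CPM in WT. The KO mean rests on KO 5, at 13265 CPM. KO 1, 3 and 4 were at 6816, 6565 and 6695 CPM, below the WT libraries at 7242 to 9555 CPM. Lgr5, a Wnt-responsive stem cell receptor, was at 2.43 ± 0.855 CPM in KO and 2.13 ± 0.625 CPM in WT. Of the 9 genes in that list edgeR called 0, with 1 higher and 1 lower in KO at an unadjusted p of 0.05 (8.70% and 6.98% of all genes).

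Over the 8 libraries, the tested protein-coding genes that followed Gli1 most closely in log2 CPM were Dysf (Pearson r = 0.977, Spearman rho = 0.976), Ank (r = 0.975, rho = 0.929) and AI593442 (r = 0.967, rho = 0.976), and 74 of 12566 genes had r above 0.9. Those most like Sox2 were Brip1 (r = 0.936, rho = 0.905), Zbtb40 (r = 0.928, rho = 0.929) and Sybu (r = 0.926, rho = 0.881), and 5 genes had r above 0.9. All values share the same 8 libraries and their depth, and they are given as a description.

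A further 47 genes of the pathway were read from a list that covers ligands and their release, receptors, transduction, the primary cilium and targets, and 44 of them were tested. In edgeR 0 passed an adjusted p of 0.05 (0.0309% of all genes). At an unadjusted p of 0.05, 6 (13.6%) were higher and 1 (2.27%) was lower in KO, against 8.70% and 6.98% of all genes. The KO libraries were all above the WT libraries in 4 (9.09%) and all below in 3 (6.82%), against 5.50% and 5.44% of all genes. The median log2 fold change was 0.0018, with 22 genes above 0 and 22 below, and the median of all genes was 0.021. DESeq2 called 2 of these genes (Gas1 and Foxf2) and limma voom 4 (Gas1, Evc and Foxf2 among them).

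**Figure D3:**
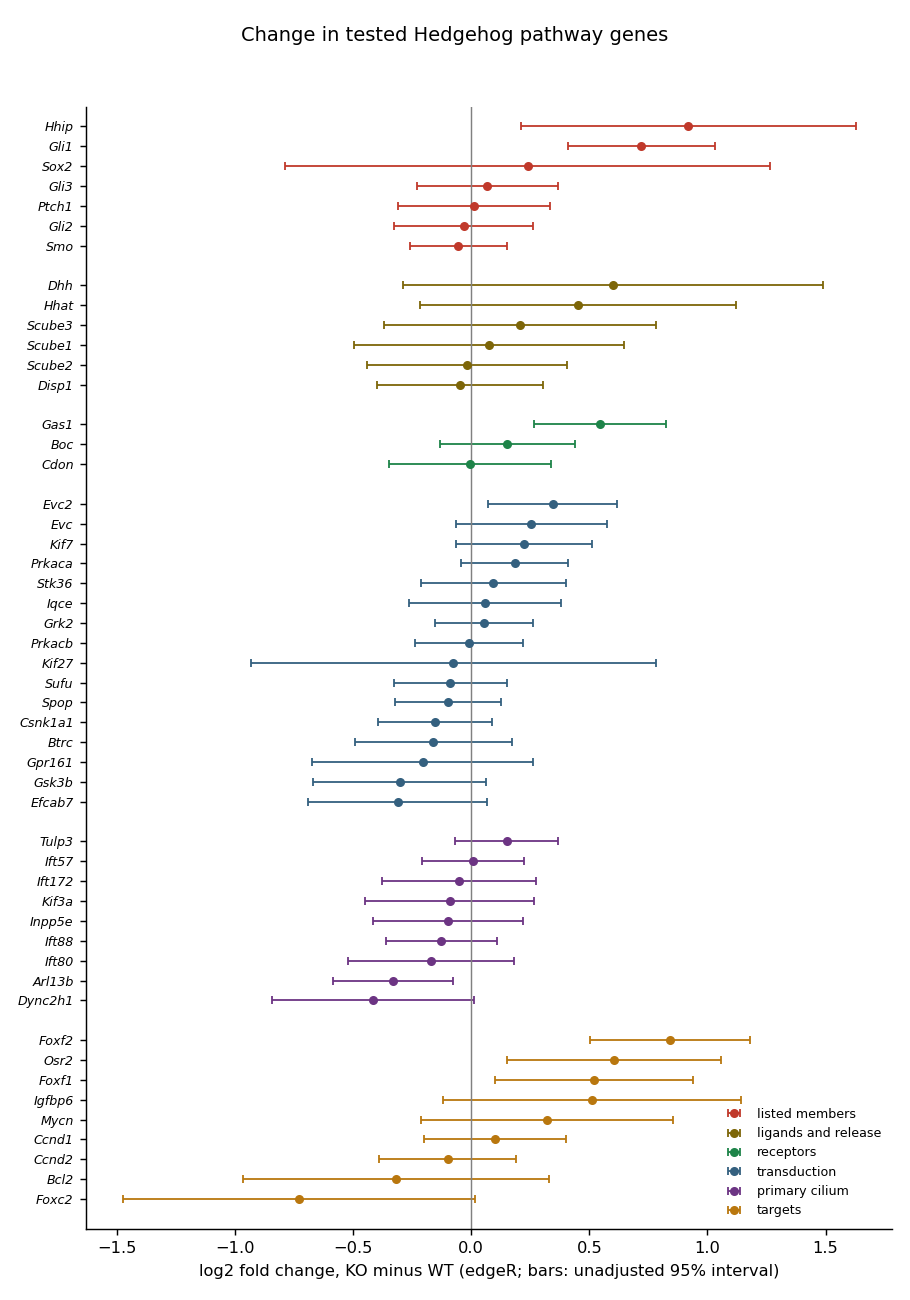
Log2 fold change (KO minus WT) of the tested pathway genes shown, by edgeR, grouped by role, with unadjusted 95% intervals as bars and the order within a group set by size. Gli1, Hhip, Gas1, Foxf2, Osr2 and Dhh lie at 0.54 to 0.92 and Foxc2 at -0.73, while most transduction and cilium genes lie near 0.

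Among the other ligands, Dhh, which Schwann cells secrete, was at 0.657 ± 0.227 CPM in KO and 0.429 ± 0.158 CPM in WT (log2 fold change 0.60, SE 0.41, adjusted p = 0.47 in edgeR). Its count is uncertain, since it overlaps Rhebl1, which had more reads. Ihh, the ligand of cartilage growth plates, had 3, 5, 7 and 10 reads in KO 1, 3, 4 and 5, against 1, 2, 3 and 3 reads in WT 2, 3, 4 and 5, and was not tested. KO 1 equalled the highest WT count, and the exact permutation test of its mean CPM, two-sided, gave p = 0.057. For markers of nerve and cartilage, edgeR called 0 at an adjusted p of 0.05. At an unadjusted p of 0.05, 6 of 11 nerve and Schwann cell markers and 3 of 6 tested cartilage markers were higher (8.70% of all genes) and 0 were lower, while 2 in each list had a log2 fold change below 0. The summed level of the nerve list was 144 to 217 CPM in KO and 108 to 134 CPM in WT, and that of the 7 cartilage markers 73.8 to 146 CPM in KO and 45.3 to 59.7 CPM in WT, where the cartilage gene Matn1 had no read. Their part in the ligand values was not tested. The 6 tested genes of the ligand and release group had 0 members past an unadjusted p of 0.05.

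Among the receptor genes, Gas1, a co-receptor on the cell surface that the pathway is known to repress, had 104, 94.2, 103 and 138 CPM in KO 1, 3, 4 and 5, against 79.9, 75.6, 68.4 and 76.7 CPM in WT 2, 3, 4 and 5 (log2 fold change 0.54, SE 0.13, adjusted p = 0.11 in edgeR). Every KO library lay above every WT library in Gas1, and KO 5 was the highest. The co-receptors Boc and Cdon overlapped between the groups, at 22.8 ± 2.10 and 18.8 ± 3.63 CPM in KO and at 20.5 ± 3.09 and 18.9 ± 2.34 CPM in WT. Lrp2 had 3 reads in all over the KO libraries and 5 over the WT libraries.

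Of the 16 transduction genes, 7 had a log2 fold change above 0 and 9 below, with a median of -0.043. Sufu, which holds GLI proteins back in the cytoplasm, was at 22.8 ± 1.44 CPM in KO and 24.3 ± 2.16 CPM in WT (log2 fold change -0.088, SE 0.11, adjusted p = 0.70 in edgeR). Evc2, a SMO partner at the base of the cilium, was the 1 gene of this group past an unadjusted p of 0.05, at 27.8 ± 3.41 CPM in KO and 21.9 ± 2.42 CPM in WT (log2 fold change 0.34, SE 0.13, adjusted p = 0.24 in edgeR), with WT 5 above KO 3 and KO 4. The 9 cilium genes had a median of -0.098, with 7 below 0. Arl13b, a GTPase of the cilium membrane, was at 18.4, 21.4, 23.9 and 20.3 CPM in KO 1, 3, 4 and 5, against 26.9, 24.0, 28.4 and 26.6 CPM in WT 2, 3, 4 and 5 (log2 fold change -0.33, SE 0.12, adjusted p = 0.23 in edgeR). All KO values of Arl13b were below the WT values, KO 4 and WT 3 almost touching.

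For the 9 tested target genes the median log2 fold change was 0.32, and at an unadjusted p of 0.05, 3 were higher in KO (8.70% of all genes) and 0 lower (6.98% of all genes). Foxf2, a forkhead factor of mesenchyme, had 21.5, 16.2, 18.1 and 25.2 CPM in KO 1, 3, 4 and 5, against 12.1, 10.8, 12.3 and 9.83 CPM in WT 2, 3, 4 and 5, with no overlap. Its log2 fold change of 0.84 (SE 0.16) had the smallest p of all 44 genes, and the adjusted p was 0.079 in edgeR. Osr2, a zinc finger factor of dental and palate mesenchyme, was at 8.06 ± 2.09 CPM in KO and 5.29 ± 0.922 CPM in WT, and overlapped (log2 fold change 0.61, SE 0.21, adjusted p = 0.22 in edgeR). Foxf2 passed without KO 5 (adjusted p = 0.045 in edgeR). Foxc2, another forkhead factor, named here after its values were seen, had every KO library below every WT library, at 0.572 to 0.711 CPM in KO and 0.764 to 1.66 CPM in WT (log2 fold change -0.73, SE 0.34, adjusted p = 0.33 in edgeR).

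**Figure D4:**
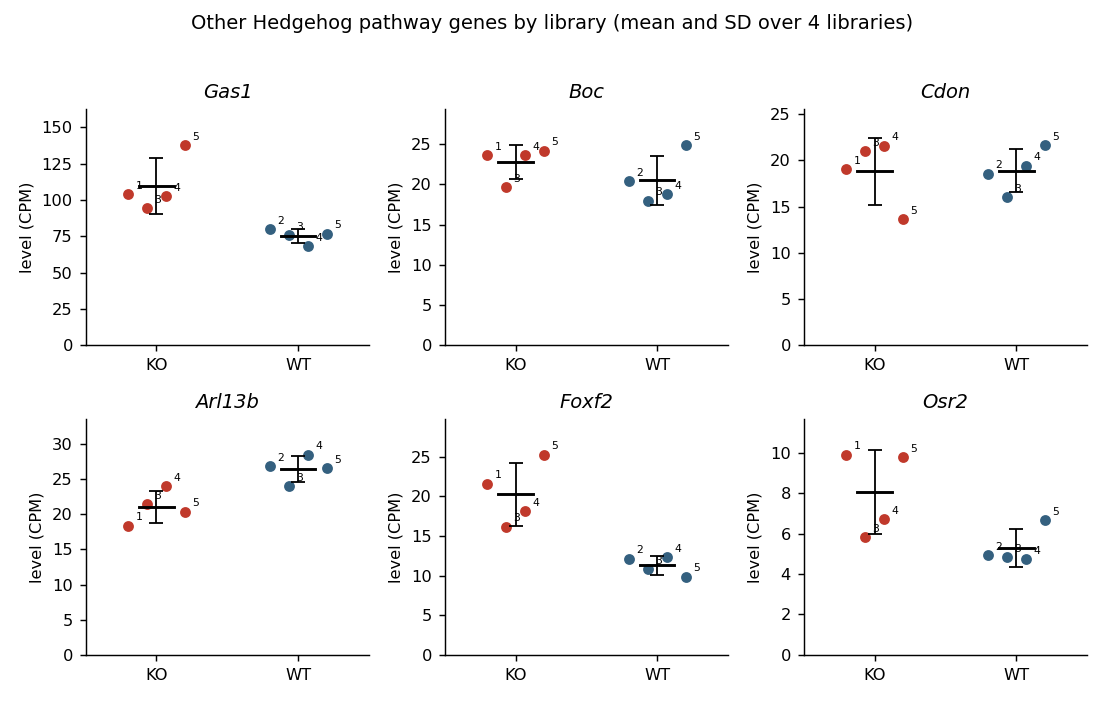
Level in CPM of the receptor genes Gas1, Boc and Cdon, the cilium gene Arl13b and the target genes Foxf2 and Osr2 in the 4 KO libraries (red, left) and the 4 WT libraries (blue, right), with library numbers, and the mean and SD as black lines. The groups are apart in Gas1, Foxf2 and Arl13b (lower in KO) and overlap in Boc, Cdon and Osr2.

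Most mesenchyme markers had a log2 fold change above 0, as Gli1 and Hhip did. In bulk RNA, fewer cells of a type and less RNA per cell cannot be told apart. Of 15 mesenchyme markers 14 had a log2 fold change above 0, with a median of 0.48, and 9 were higher at an unadjusted p of 0.05 (8.70% of all genes), 0 of them at an adjusted p of 0.05 in edgeR. The list was chosen with its earlier values known. Its summed level was 7777, 5877, 7087 and 8374 CPM in KO 1, 3, 4 and 5, against 5080, 3993, 3880 and 6221 CPM in WT 2, 3, 4 and 5, so that KO 3 lay below WT 5, and none of the markers was without reads. Markers of oral keratinocytes had a summed level of 588 to 866 CPM in KO and 744 to 1422 CPM in WT over 15 genes. Of the 13 tested, 11 were lower at an unadjusted p of 0.05 (6.98% of all genes) and 2 of them fell at an adjusted p of 0.05 in edgeR (0.0185% of all genes), and Sprr1b had no read in KO and reads in WT 2 and WT 5 only. Of 9 odontoblast and bone markers 5 were higher at an unadjusted p of 0.05 (8.70% of all genes) and 1 rose at an adjusted p of 0.05 in edgeR (0.0123% of all genes), and their summed level was 15498 to 23866 CPM in KO and 14135 to 26173 CPM in WT.

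Per read of these mesenchyme markers the groups overlapped in Gli1. Most markers of the list were themselves higher in KO, so dividing by them lowers the KO values of any gene relative to WT. Whether tissue make-up accounts for the difference in Gli1 was not tested. Gli1 had 1.39, 2.19, 1.68 and 1.29 reads per 1000 reads of the list in KO 1, 3, 4 and 5, against 1.31, 1.49, 1.97 and 1.27 in WT 2, 3, 4 and 5. Hhip, Foxf2 and Gas1 also overlapped between the groups on this scale, at 0.548 ± 0.118, 2.77 ± 0.188 and 15.1 ± 1.42 in KO and at 0.432 ± 0.220, 2.46 ± 0.672 and 16.2 ± 2.86 in WT. Gli2 and Smo, level in CPM, were lower on this scale in every KO library. They were at 3.59 ± 0.867 and 16.7 ± 2.76 in KO and at 5.56 ± 0.709 and 26.8 ± 5.25 in WT. Gli3 and Ptch1, also level in CPM, had lower means in KO but overlapped between the groups. They were at 4.68 ± 1.36 and 5.61 ± 1.94 in KO and at 6.73 ± 0.943 and 8.43 ± 1.73 in WT. The division pushes a gene that is level in CPM down in KO. The share of all genes apart on this scale was not computed, so the gap in Gli2 and Smo is no result particular to them. Col3a1 alone made up 36.3% to 52.5% of the reads of the list. Over the geometric mean of the 15 markers, which weights them equally, Gli1, Hhip, Foxf2, Gas1, Gli3 and Ptch1 again overlapped. Gli2 and Smo were again apart. Gli1 was then at 0.0698 ± 0.0122 in KO and 0.0589 ± 0.00778 in WT.

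**Figure D5:**
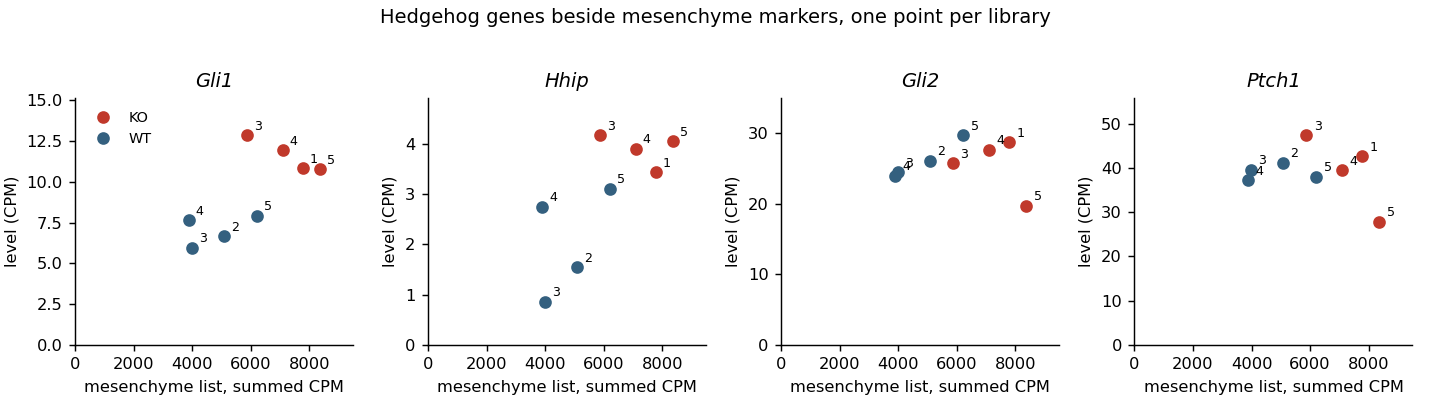
Level of Gli1, Hhip, Gli2 and Ptch1 in CPM against the summed CPM of 15 mesenchyme markers, 1 numbered point per library, KO in red and WT in blue. KO libraries lie to the right, except that KO 3 (5877 CPM) is left of WT 5 (6221 CPM), and above the WT libraries for Gli1 and Hhip but not for Gli2 and Ptch1.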

How the data were processed

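RNA of first molars without pulp was measured by sequencing after polyA capture, per the labels' protocols. The authors deposited 1 table of raw read counts by Ensembl gene and library, with gene length in bases as another column. CASAVA and mm39 are named in the submitters' processing notes, but 98.8% of the gene starts in the deposited table equal those of GENCODE M21 on GRCm38, so coordinates are given on GRCm38. Which aligner and counter were used, and with what strand setting, is not given in the sources used here, so reads in overlapping genes are ambiguous.

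Genes were filtered with filterByExpr (minimum count 10, minimum total 15) and scaled by TMM (factors 0.936 to 1.06). KO was compared with WT by edgeR 4.0.16 (R 4.3.3), quasi-likelihood test, robust, two-sided, without covariates, and p was adjusted by Benjamini-Hochberg over 16205 genes at a threshold of 0.05. SE is the log2 fold change over the square root of F, and 95% intervals use the t distribution with the fit's degrees of freedom. CPM use TMM-scaled totals, and RPKM divide them by the authors' gene length. Log2 CPM for correlations used a prior count of 2. Fits were tested on simulated data. Alternatives were DESeq2 1.42.0, limma 3.58.1 (voom), other scalings, no filter, a replicate block and each library left out. The limma voom fit used quality weights, so its libraries did not count equally, unlike those of the other fits.

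The members, lists and tests were chosen with earlier results of these data known. All 8 members are named, and of the other pathway genes those past the threshold, the 6 with the smallest p and 8 fixed by name, of which 1 is not reported here. Of the marker lists at most 2 genes are named, and the genes most like a member are the 3 of at least 2 CPM with the highest Pearson r. Promoter sequences are from RefSeq (GRCm38.p6) and matched 6 of the 8 members, all but Gli1 and Shh. Low counts limit Shh, Sox2, Dhh, Ihh and Lrp2, and 3 reads correspond to 0.138 to 0.170 CPM. Shh and Sox2 also varied widely between libraries of the same group.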

Additional observations from a re-analysis of the deposited data

Results flagged for a closer look

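Among 42 groups of 4 libraries (Wdr72, the listed genes and the other pathway genes named), 5 held a library far from the others by Dixon's test, where chance gives about 1 in 20. Osr2 was at 6.67 CPM in WT 5, against 4.75 to 4.93 CPM in the other WT libraries. Evc2 was at 25.5 CPM in WT 5, against 20.6 to 20.8 CPM in the others. Dhh was at 0.665 CPM in WT 4, against 0.332 to 0.382 CPM in the others. Sufu was at 27.5 CPM in WT 2, against 22.8 to 23.6 CPM in the others. Boc was at 19.6 CPM in KO 3, against 23.6 to 24.2 CPM in the other KO libraries. None of the 8 listed genes was among them.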

How the results depend on the processing

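The log2 fold change of Gli1, Hhip, Smo and Gli3 kept its sign in all 16 alternatives. The count of genes past an adjusted p of 0.05, 5 in edgeR, was 2 with library totals, 241 with no low-count filter, 464 with DESeq2, 1073 with limma voom, 11 without KO 1 and KO 5, and 0 to 55 with 1 library left out (55 without KO 5, 16 without WT 4 and 0 without KO 3, KO 4, WT 2 or WT 3, where 3139, 2622, 1744 and 1720 genes were under an unadjusted p of 0.05). The count of listed genes, 0 in edgeR, was 1 with no filter (Gli1), 1 with DESeq2, 2 with limma voom and 0 to 1 with 1 library left out. That of the other pathway genes was 2, 2 and 4 in the same 3 fits and 0 to 1. With 1 library left out, the counts of 1 were those without KO 5. The log2 fold change of Wdr72 passed at -2.44 with DESeq2, at -2.62 with limma voom and at -3.21 without KO 1, and ran from -3.21 to -2.15 with 1 library left out.

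Ptch1 was at -0.030 with library totals, Gli2 at 0.091 with limma voom and 0.033 without KO 1 and KO 5, and Cdon at 0.0061 with no filter, 0.21 with limma voom and 0.17 without KO 1 and KO 5. With 1 library left out the ranges were -0.094 to 0.15 for Ptch1, -0.094 to 0.072 for Gli2, -0.052 to 0.59 for Sox2 and -0.077 to 0.12 for Cdon. The causes were not tested.

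Libraries with the same number did not deviate together (correlations of -0.14, -0.092 and -0.12 for 3, 4 and 5). Of 3 KO libraries, 0 correlated best with the WT library of its number. Pairing by number was thus not seen, but 3 pairs are too few to exclude it. With a replicate block over those 6 libraries there was 1 gene past the threshold, Wdr72 was at -3.42 and Ptch1 at -0.031, and 0 listed or other pathway genes passed. A fit of the same 6 libraries without it, added after the data were seen, gave 1 gene and -3.35 for Wdr72. Low counts limit Shh, Sox2, Dhh, Ihh and Lrp2, whose library counts were at most 27 reads, and so does the spread between libraries for Shh and Sox2.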
